A study of Rattus norvegicus with 11 samples.

Results

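miR-22 is a single-locus microRNA, and its precursor gives 2 mature arms, miR-22-3p and miR-22-5p. These 2 features were described here in pancreatic islets of suckling and adult rats, out of 898 distinct features in the count table. They were chosen by name, as the rows of the sense strand that begin with miR-22, after earlier results had shown that they differ between the ages. Their difference between the ages is therefore given as values and errors, with no test.

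Small RNA was sequenced from islets of control Sprague-Dawley rats at 2 ages. The first group was 10-day-old pups (P10, 1.5 weeks in the labels, 5 libraries), and the second was 3-month-old males (12 weeks, 6 libraries). All libraries are labelled biological replicates, and no label says whether a library pools animals. Sex is given here for the adults only, so that age and sex cannot be told apart. Library totals ran from 1594961 to 4468745 counts at P10 and from 1430412 to 2841550 in adults. The leading endocrine marker, miR-375-3p, was abundant in both groups, averaging 143097 ± 21137 CPM over the 5 pup libraries and 287814 ± 26974 CPM over the 6 adult libraries (± SD). CPM are counts scaled to a library total of 1000000, here with edgeR's TMM factors, which correct for library composition. Both arms passed the filter on low counts, which left 457 features. The filter asks for enough reads in only as many libraries as the smaller group has, so a feature high at 1 age can pass. miR-22-5p had only 4 and 11 reads in P10 replicates 3 and 5, so its place leans on the adult libraries. Of these 457 tested features, 232 (50.8%) were called different between the ages by edgeR's quasi-likelihood test at a Benjamini-Hochberg adjusted p under 0.05.

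A microRNA precursor is a hairpin that is cut to a duplex, from which usually 1 strand is kept in Argonaute and guides it to target messengers through its seed, bases 2 to 8. miR-22 is conserved among vertebrates and is made from an exon of a long noncoding host transcript in human and mouse. Its 3p arm is known for its abundance in heart and skeletal muscle and in blood-forming cells, and for repressing the Tet enzymes, which oxidise methylated cytosine in DNA, Sirt1 and Hdac4.

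The mature sequences are shown because the seed is the part that defines what an arm can pair with. Both are from RefSeq (GRCr8), written 5′ to 3′, with the seed in capitals.
miR-22-5p: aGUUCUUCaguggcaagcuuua
miR-22-3p: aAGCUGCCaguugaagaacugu

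The hairpin, also from RefSeq (GRCr8), is shown with both mature arms in capitals, 5p first, to place the 2 measured products on their precursor.
Mir22 hairpin: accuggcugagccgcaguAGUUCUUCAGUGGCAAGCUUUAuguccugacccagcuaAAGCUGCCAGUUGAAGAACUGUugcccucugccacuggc

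Neither seed was shared. Among 692 distinct rat mature sequences in the RefSeq table, 0 others had the bases 2 to 8 of miR-22-3p and 0 others had those of miR-22-5p, and the numbers were also 0 for bases 2 to 7. Both features thus stand alone by seed among these sequences. Rows of the count table without a named RefSeq sequence were not compared. In the minimum free energy fold of the 95-base hairpin (RNAfold, -43 kcal/mol), 19 of the 22 bases of miR-22-5p paired with bases of miR-22-3p.

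In the authors' coordinates (Rnor_5.0) miR-22-5p lies on chromosome 10 at 62013660 to 62013681 and miR-22-3p at 62013698 to 62013719, both on the plus strand. The 16 bases between them match the 16 bases between the arms in the RefSeq hairpin, and 0 other rows of the table overlap either arm. In the RefSeq gene table the Mir22 gene overlaps 0 other genes. It sits between Mir6326, with Wdr81 beyond it, and Tlcd2. The table does not give exons, so no exon or intron is assigned here.

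miR-22-3p was among the most abundant microRNAs of these islets, and its level was higher in every adult library than in any P10 library. At P10 it was at 16840, 20670, 23050, 21978 and 24575 CPM in replicates 1, 3, 4, 5 and 6. In adults it was at 52795, 50345, 58179, 54333, 61254 and 59537 CPM in replicates 1 to 6. The 2 ages were far apart: the lowest adult library, replicate 2, was 2.05-fold above the highest P10 library, replicate 6. The means were 21423 ± 2935 CPM (SD, n = 5) and 56074 ± 4239 CPM (SD, n = 6). This was a 2.62-fold difference, or 1.39 ± 0.11 on the log2 scale (SE from the edgeR fit). Each value rests on 30758 to 166090 reads. Counting error was therefore small. For example, the 95% exact binomial interval for the share in P10 replicate 3, the library with the fewest reads of this arm, was 1.91% to 1.95%. Intervals cover counting error only, since the reads carry no molecular identifiers.

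The passenger arm, miR-22-5p, was near the floor of what these libraries can measure. It had 18, 4, 17, 11 and 27 reads at P10 in replicates 1, 3, 4, 5 and 6, and 10, 18, 10, 13, 31 and 30 reads in adult replicates 1 to 6. These reads gave 5.94, 2.69, 4.48, 3.13 and 5.61 CPM at P10. In adults they gave 8.46, 6.87, 6.87, 8.98, 11.4 and 15.3 CPM. Here too every adult library lay above every P10 library, but only just. The lowest adult value was 1.16-fold above the highest P10 value, and their 95% exact binomial counting intervals overlapped (4.07 to 10.9 CPM in adult replicate 2 and 3.52 to 9.39 CPM in P10 replicate 1). The means were 4.37 ± 1.45 CPM (SD, n = 5) and 9.66 ± 3.24 CPM (SD, n = 6), and the log2 difference was 1.10 ± 0.29 (SE from the edgeR fit). In 62 of 457 tested features (13.6%) every adult library lay above every P10 library, as in both arms of miR-22; the arms were chosen on this contrast, so nothing is read from that share.

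**Figure D1:**
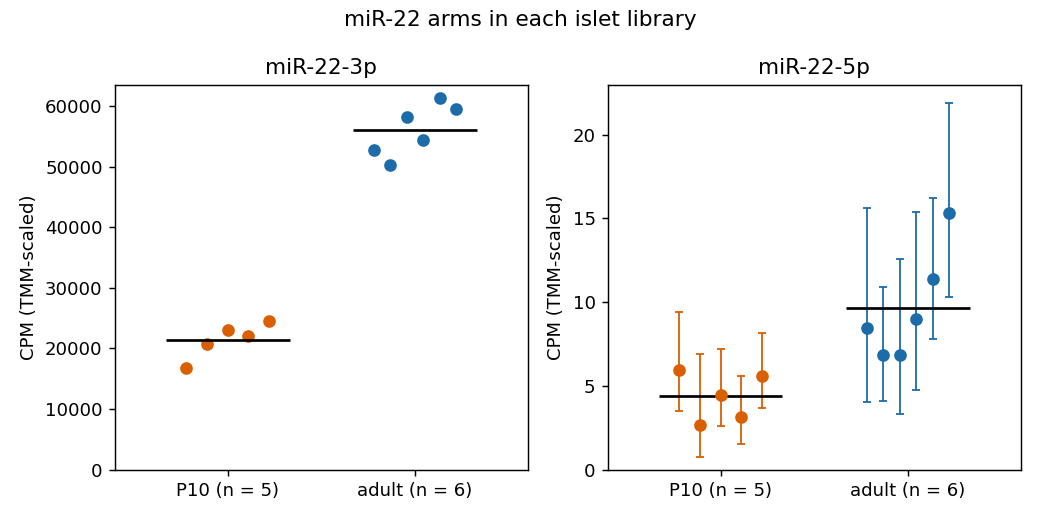
CPM of miR-22-3p (left) and miR-22-5p (right) in each library, P10 in orange and adult in blue, with the age mean as a black line; bars on miR-22-5p are 95% exact binomial counting intervals. The adult points of miR-22-3p lie between 50345 and 61254 CPM, all above the P10 points, while the intervals of miR-22-5p overlap between ages.

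The difference also appears in values that use no scaling factor, though it is smaller. miR-22-3p held 2.37% ± 0.338 of all counts at P10 (SD, n = 5) and 5.18% ± 0.544 in adults (SD, n = 6), a 2.19-fold ratio. miR-375-3p takes a large and unequal part of each library, so the share was also computed without it: 2.83% ± 0.470 at P10 and 7.05% ± 0.820 in adults, with ranges of 2.16% to 3.20% and 5.96% to 8.10%. Set against miR-375-3p itself, miR-22-3p gave 15.2 ± 2.60 reads per 100 reads of miR-375-3p at P10 (SD, n = 5) and 19.6 ± 2.17 in adults (SD, n = 6). By that measure the ages overlapped, with 12.0 to 18.3 at P10 and 16.2 to 22.1 in adults. The log2 fold change of miR-375-3p in the TMM-scaled fit was 1.01, against 1.39 for miR-22-3p. In bulk islets, fewer cells of a type and less RNA per cell cannot be told apart, and this holds for each level given here.

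Markers of other cells were read in the same libraries; of all 457 tested features 21.2% were called higher and 29.5% lower. The mesenchymal list was drawn up to mark fibroblasts and smooth muscle, and how specific its features are to these cells was not tested. Of its 5 tested features, 4 were lower and 0 higher in adults by edgeR's quasi-likelihood test. The summed level of the list was 93293 to 226029 CPM at P10 and 25725 to 91890 CPM in adults. Most of that sum was miR-10b-5p (means of 88939 CPM at P10 and 18107 CPM in adults) and miR-143-3p (41009 and 29200 CPM). The feature not called was miR-143-3p (edgeR adjusted p = 0.174). The acinar list, with 2 of 3 tested features higher, summed to 20.5 to 32.7 CPM in pups and 25.6 to 119 CPM in adults. The leukocyte list, with 1 of 4 lower, summed to 675 to 1422 CPM in pups and 248 to 829 CPM in adults. The islet endocrine list, with 3 of 4 higher and 1 lower, summed to 113819 to 166678 CPM in pups and 252341 to 325906 CPM in adults. Nearly all of that sum was miR-375-3p, given above. The others called higher were miR-7a-1-5p and miR-7a-2-5p, loci of 1 name. The lower feature was miR-184-3p, with means of 371 CPM in pups and 155 CPM in adults. The part of these lists in the difference of miR-22 was not tested. When P10 replicate 3 and adult replicate 1, which had the highest mesenchymal level of their ages, were left out, the log2 fold change of miR-22-3p was 1.40 and that of miR-22-5p 1.06. With the mesenchymal level as a covariate it was 1.16 ± 0.22 (SE) for miR-22-3p and 0.21 ± 0.65 (SE) for miR-22-5p. Both alternatives were chosen after seeing the data. The mean log2 CPM of the list ran from 11.65 to 12.24 at P10 and from 9.32 to 11.11 in adults, so the ranges of this covariate did not overlap between the ages.

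Markers of muscle and red cells were read as well, since miR-22 is abundant in muscle and blood-forming cells. The leukocyte list is given above. For striated muscle, the only tested feature, miR-499-5p, encoded in a myosin gene, averaged 7.31 ± 2.55 CPM over 5 pup libraries and 12.1 ± 1.30 CPM over 6 adult libraries (± SD; called higher, edgeR adjusted p = 0.0307), and miR-133b-3p and miR-208b-3p had at most 4 and 2 reads in any library. The erythroid list summed to 24.2 to 72.3 CPM at P10 and 14.5 to 63.8 CPM in adults, with miR-451-5p, the main red cell microRNA, at 35.2 ± 19.5 and 28.2 ± 15.0 CPM. Names of these lists without a row, such as miR-1-3p, miR-133a-3p and miR-486-5p, and endothelial miR-126 are not analysed here, so the low values cover only part of each list.

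Within the order of levels, miR-22-3p moved up. It ranked 11 of 457 tested features in each of the 5 P10 libraries and between 4 and 6 in the 6 adult libraries. At P10 the feature directly above it was miR-141-3p, an epithelial microRNA of the miR-200 family, at 28844 ± 5869 CPM (SD over 5 libraries). miR-141-3p exceeded miR-22-3p in 5 of 5 P10 libraries, and in 0 of 6 adult libraries. Directly below it at P10 was miR-21-5p, a growth and stress-responsive microRNA, at 14598 ± 4094 CPM (SD, n = 5). In adults its neighbours were ENSRNOT00000073699_-3p above, at 61675 ± 4853 CPM (SD, n = 6) and higher in 5 of 6 libraries, and ENSRNOT00000072394_-5p below, at 49681 ± 3409 CPM and higher in 1 of 6. The ranges of all 4 neighbours overlapped that of miR-22-3p at the age in question. The P10 orders held in each library, and the adult orders in 5 of 6. miR-22-5p ranked between 420 and 449 at P10 and between 321 and 395 in adults.

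Among the 63 tested features with a mean of at least 1000 CPM, the log2 fold change of miR-22-3p was the second highest, after miR-3556a-5p_antisense (2.02). It was followed by miR-27b-3p and miR-375-3p (1.16 and 1.01). Among all 457 tested features it ranked 19 and that of miR-22-5p ranked 33. Of the features ranked above it, miR-3556a-5p_antisense alone averaged at least 1000 CPM, as the plot of fold change against abundance shows. Names ending in antisense are rows labelled as antisense to the annotated arm. Which microRNA gave the reads of such rows was not examined.

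**Figure D2:**
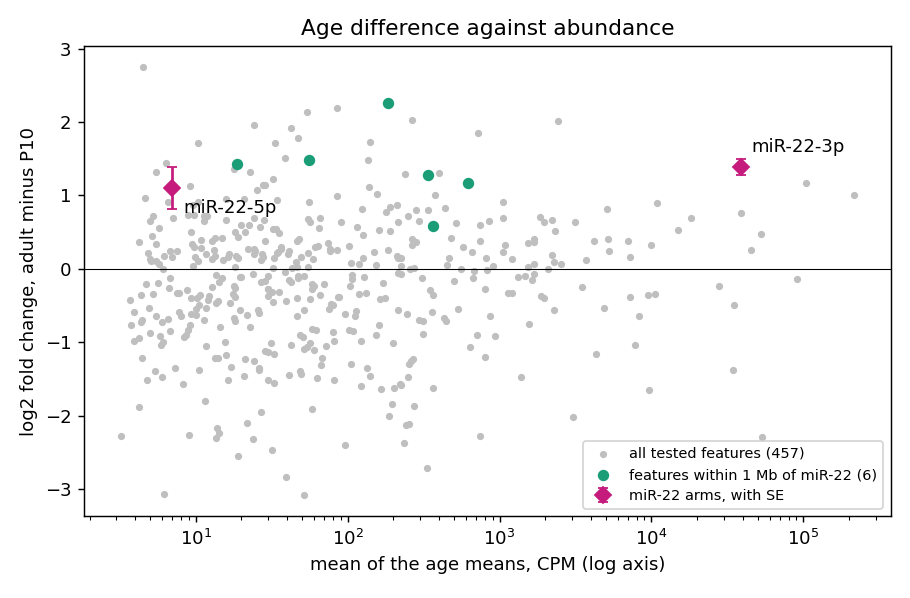
Log2 fold change of adult minus P10 (edgeR) against mean CPM (log axis) for all 457 tested features in grey, the 6 features within 1 Mb of miR-22 in green and the miR-22 arms as magenta diamonds with SE. miR-22-3p stands at 1.39 at the abundant end and miR-22-5p at 1.10 near the low end.

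The balance of the arms was extreme in both ages. Over all libraries the table held 1004874 reads of miR-22-3p and 189 of miR-22-5p, or 5317 reads of the 3p arm for each read of the 5p arm. Among 150 named precursors with reads on both arms and at least 1000 reads in all, miR-22 ranked 10 by the ratio of its major to its minor arm, and 6 among the 70 in which the 3p arm was the larger. The median ratio was 56.9. miR-375, also a 3p precursor, had 5689115 reads on its 3p arm against 211 on its 5p arm.

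The share of the 5p arm in miR-22 reads was low in all libraries and overlapped between the ages. Per 100000 reads of both arms, the 5p arm gave 35.3, 13.0, 19.4, 14.3 and 22.8 reads in P10 replicates 1, 3, 4, 5 and 6. In adults it gave 16.0, 13.6, 11.8, 16.5, 18.7 and 25.7 reads in replicates 1 to 6. P10 replicate 1 was the highest of all 11 libraries. Its 95% exact binomial interval, 20.9 to 55.8, lay above the values of 8 of the 10 other libraries. Those values rest on few reads too, and the intervals of all other libraries overlapped it. The lowest of their upper bounds was 21.6, in adult replicate 2. The means were 21.0 ± 8.93 (SD, n = 5) and 17.1 ± 4.86 (SD, n = 6). On the log2 scale with a prior count of 2, the ratio of 5p to 3p was -12.06 ± 0.50 at P10 and -12.44 ± 0.36 in adults, a difference of -0.38, with a pooled within-age SD of single libraries of 0.43. Without P10 replicate 1 the difference was -0.19.

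The 5p values cannot resolve a small shift in arm use. The SD of the log2 ratio around the age means was 0.48 from the raw reads, and the counting of so few reads alone gives 0.41. For miR-22-3p the within-age SD of log2 CPM was 0.16, which ranked 30 from the least variable among 227 features with a mean of at least 50 CPM (median 0.26), and counting alone gives 0.005. For miR-22-5p it was 0.42 with the prior count of 2, and counting alone gives 0.41 without a prior count. These 2 values are not on the same scale: for the arm ratio, the prior count lowered the SD from 0.48 to 0.43.

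**Figure D3:**
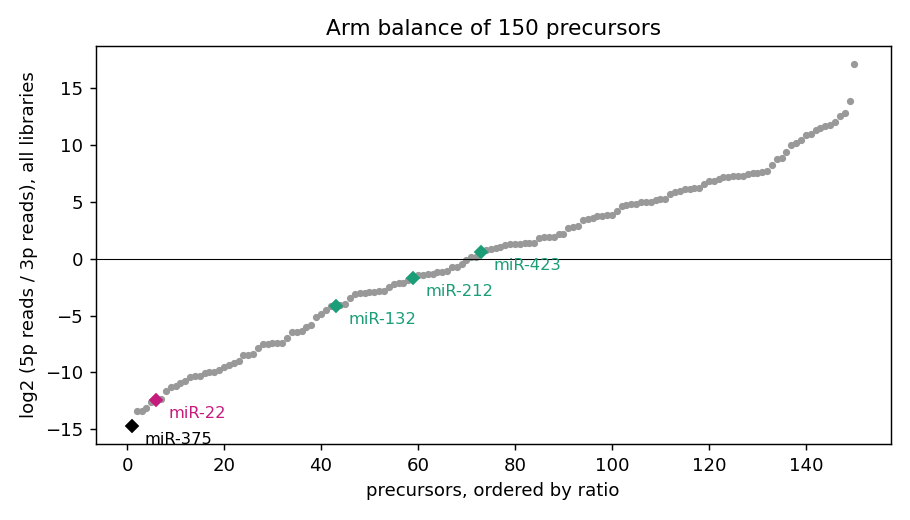
Log2 ratio of 5p to 3p reads over all 11 libraries for 150 precursors in order of their ratio, with miR-22 in magenta, miR-375 in black and the precursors within 1 Mb of miR-22 in green. miR-22 lies near the 3p end, at -12.38, while miR-132, miR-212 and miR-423 lie at -4.15, -1.66 and 0.64.

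Whether the 2 arms vary together was asked within adults, since variation inside an age was not used to choose them. Over the 6 adult libraries Pearson's r of their log2 CPM was 0.64 (two-sided exact permutation p = 0.165) and Spearman's rho was 0.77 (exact permutation p = 0.103), so no relation was shown. This was the only relation tested, and its adjusted p is the same. Spearman's rho was lower, 0.54 (exact permutation p = 0.297), both under scaling by library totals only and with DESeq2's scaling factors. Without the 2 libraries farthest from the median of miR-22-3p, r was 0.45 over 4 libraries, a number too small for a test. No correlation is given within the 5 P10 libraries, since at least 6 were required.

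The features nearest to miR-22 on chromosome 10 were higher in adults as well. The 6 tested features within 1 Mb, all on the plus strand and chosen by position, were each called higher by edgeR's quasi-likelihood test with Benjamini-Hochberg adjustment, where 97 of 457 tested features (21.2%) were called higher. They are the arms of 3 precursors and not 6 independent loci. The activity-regulated pair miR-212 and miR-132 lies 284.3 to 284.6 kb before miR-22. The level of miR-212-3p was 54.5 to 73.9 CPM in the pup libraries and 235 to 347 CPM in the adult libraries (log2 fold change 2.26 ± 0.15, edgeR adjusted p = 1.54e-07), and the other 3 arms had changes of 1.28 to 1.48.

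On the other side, 783 kb away (62796762 to 62796820, Rnor_5.0), lies miR-423, an abundant and widely expressed microRNA. miR-423-5p was at 414, 380, 344, 415 and 342 CPM at P10 and at 1059, 419, 1172, 956, 676 and 830 CPM in adults. The lowest adult library, replicate 2, was close to the P10 range, and the ages did not overlap. On the log2 scale it rose by 1.17 ± 0.22 (SE), with an edgeR adjusted p = 0.000645. For miR-423-3p the pup libraries averaged 290 ± 47.3 CPM (SD of 5) and the adult libraries 435 ± 76.7 CPM (SD of 6), with overlapping ranges; it rose by 0.58 ± 0.16 (log2, SE; edgeR adjusted p = 0.00819). Scaled by library totals only, its change was 0.31 (adjusted p = 0.143). With the mesenchymal covariate 1 of the 6, miR-212-3p, was still called (log2 change 1.93), in a fit that called 15 of 457 features higher. Of the other 5, miR-423-5p had a log2 change of 1.21 in that fit and miR-132-5p of 1.00, miR-212-5p of 0.80, miR-132-3p of 0.67 and miR-423-3p of 0.37 (edgeR adjusted p of 0.159 to 0.590).

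**Figure D4:**
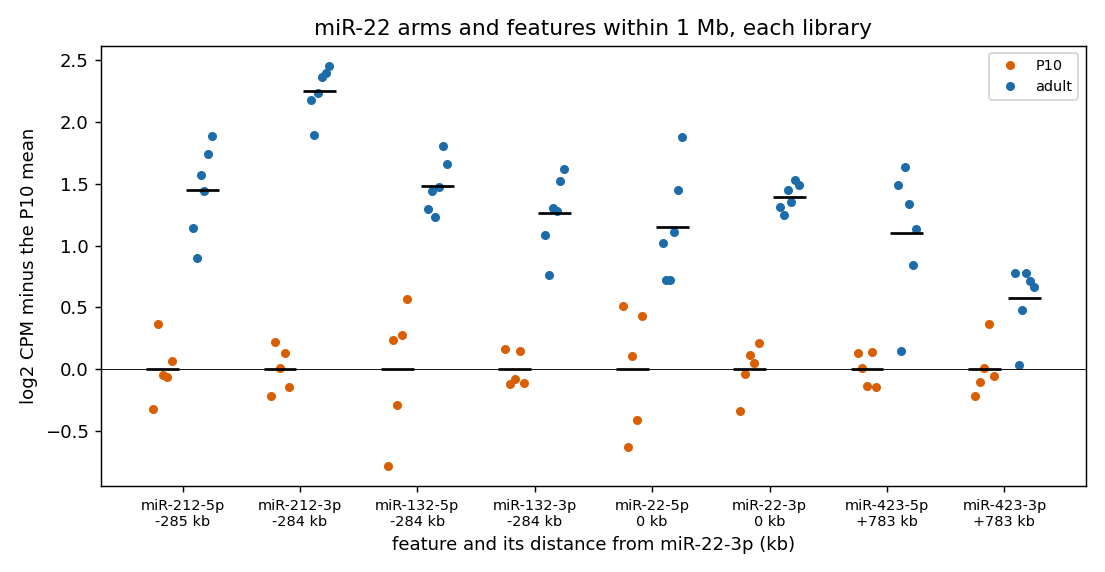
Log2 CPM minus the P10 mean in each library for the miR-22 arms and the 6 features within 1 Mb, in chromosomal order with their distance from miR-22-3p; P10 in orange, adult in blue, age means as black lines. The adult points of miR-22-3p lie close together, while those of miR-423-5p spread down to just above the P10 range.

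By pattern over the 11 libraries, the features most like miR-22-3p were miR-27b-3p (Pearson's r of log2 CPM 0.984), miR-1843-5p (0.982) and miR-212-3p (0.982), among 227 features with a mean of at least 50 CPM. miR-27b-3p, known for roles in vessels and lipid metabolism, averaged 64662 ± 10267 CPM in the 5 pup libraries and 144855 ± 11160 CPM in the 6 adult libraries (± SD). For miR-1843-5p the means were 71.6 ± 8.32 CPM and 201 ± 14.5 CPM. All points share their library, its scaling factor and the age difference, so a high r is given to any feature with a clean difference between the ages. For miR-22-5p the 3 most alike were miR-3074-5p_antisense (0.909), miR-3575-5p_antisense (0.877) and miR-7a-2-3p (0.875).

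A different set came first once the age means were removed. miR-200b-3p, an epithelial microRNA, then followed miR-22-3p most closely (r = 0.961 over 11 libraries), followed by miR-3578-5p_antisense (0.918) and miR-3578-3p_antisense (0.910). The pup libraries averaged 968 ± 194 CPM of miR-200b-3p (SD of 5) and the adult libraries 1211 ± 130 CPM (SD of 6), which did not pass the test between ages (edgeR adjusted p = 0.0703). P10 replicate 1 was the lowest P10 library for both; without it r was 0.90 over 10 libraries, and under scaling by library totals only it was 0.96. miR-200b-3p was picked as the highest of the 227 features compared, so lower values for other compared features follow from that choice. A typical r over these features is not given. With the age means removed, r with miR-22-3p was 0.62 and 0.47 for miR-212-5p and miR-212-3p, the first of the chromosomal neighbours. It was 0.73 and 0.22 for miR-132-5p and miR-132-3p, and 0.03 and 0.43 for miR-423-5p and miR-423-3p. Several of these rest on P10 replicate 1: without it the value was 0.68 for miR-132-3p, 0.38 for miR-132-5p, 0.57 for miR-212-5p, 0.26 for miR-212-3p, 0.19 for miR-423-5p and 0.32 for miR-423-3p, and the order of the miR-132 arms was the opposite. The 2 miR-22 arms had 0.15 with each other, where the 5p arm carries the counting error given above. P10 replicate 1 had the lowest 3p level of all libraries and the highest 5p level at P10 (16840 and 5.94 CPM). The value without that library was not computed.

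**Figure D5:**
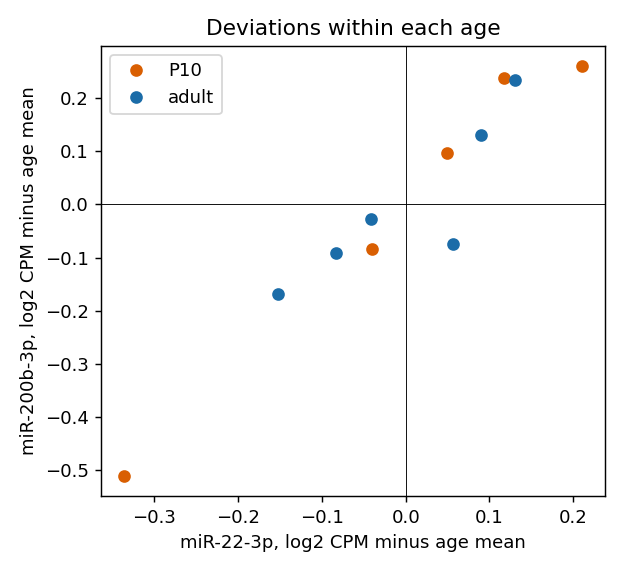
Log2 CPM minus the mean of its age for miR-22-3p (horizontal) and miR-200b-3p (vertical) in each of the 11 libraries, P10 in orange and adult in blue. The points lie along 1 diagonal (r = 0.961), with P10 replicate 1 at the lower left end.

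Other microRNAs reported to target the Tet enzymes, as miR-22-3p is, were read as a list, and most were higher in adults. Of 10 tested features 8 rose, 0 fell and 2 did not pass by edgeR, against 97 (21.2%) higher and 135 (29.5%) lower of all 457 tested, and the list's median was 0.55 on the log2 scale, against -0.11 for all tested features. miR-125a-5p rose 1.26-fold, with pups at 8790 ± 1481 CPM and adults at 11052 ± 1068 CPM (SD of 5 and 6 libraries; edgeR adjusted p = 0.0326), and miR-26a-5p rose 1.30-fold, with pups at 6072 ± 918 CPM and adults at 7917 ± 846 CPM (edgeR adjusted p = 0.0151). Under scaling by library totals only, 4 of the 10 rose, where 54 of 457 features were called higher. In the covariate fit 0 of the 10 rose, where 15 of 457 were called higher, so that count says nothing particular to the list. The list was drawn up with earlier results of these data known, and the mesenchymal, acinar and endocrine levels given above moved in the same libraries; their part in these counts was not tested. Loci of 1 name count separately in the list, so the 10 features come from 8 names. miR-29a-3p and miR-29c-3p, also on the list, had no row under these names and are not analysed here. Whether rows labelled antisense to other names hold their reads was not examined. miR-22-3p, at 56074 CPM in adults, was more abundant than any tested member of the list at that age, where the highest was miR-125a-5p. Ligation and PCR differ between sequences, so levels of different microRNAs compare only roughly. No messenger was measured, so nothing is said of the targets themselves.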

How the data were processed

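The deposited values are raw counts, not normalized, for each mature arm by locus and strand. The build is Rnor_5.0 per the file headers, and rn5 per the submitters' processing notes, which also name edgeR and DESeq without role or version. The aligner was not given in the sources used here, nor were the counting rules or the annotation. Libraries were made with a TruSeq small RNA kit, per the labels' protocols. The 11 per-library tables held the same counts as the series table.

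Each mature name entered once, with its highest count over rows in each library (950 rows, 898 features). edgeR 4.0.16 in R 4.3.3 filtered features (filterByExpr), scaled libraries by TMM and fitted age over all 11 libraries by robust quasi-likelihood, with Benjamini-Hochberg adjustment and a threshold of 0.05; the step was tested on simulated data. Log2 CPM used a prior count of 2. Exact tests used Python 3.11.15, and ViennaRNA 2.7.2 folded the hairpin. Both members matched the RefSeq sequence table. Alternatives used limma-voom (limma 3.58.1) and DESeq2 1.42.0.

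Libraries of 1 age all differed by more than sampling noise (chi-square at least 13.0 for each degree of freedom). Where the labels do not show separate animals, p-values measure only the spread between these libraries. The members and lists were chosen with earlier results of these data known. The features named are both arms, those within 1 Mb, the abundance neighbours, the 3 most alike by each measure and the 2 most abundant of the Tet list (a second target list is not reported here); miR-3556a-5p_antisense, miR-375-3p, and further members of the lists were named after their values were seen.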

Additional observations from a re-analysis of the deposited data

How the results depend on the processing

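The log2 fold change of miR-22-3p kept its direction in all 23 alternatives, between 1.13 and 1.55. It moved by more than the within-age SD with library totals alone (1.13) and with the mesenchymal covariate (1.16), and leaving out single libraries gave 1.31 to 1.44. That of miR-22-5p was 0.93 to 1.21 when single libraries were left out and 0.21 with the mesenchymal covariate; the cause was not tested, and at a mean CPM of at least 10 it was not fitted. The arm ratio difference ran from -0.50 to -0.19 over single libraries left out, the latter without P10 replicate 1, and r between the arms in adults was 0.45 to 0.70. Over all features, 97 were higher and 135 lower. Scaling by library totals gave 54 higher and 187 lower, upper-quartile scaling gave 127 and 103, and the mesenchymal covariate gave 15 and 9. Library totals alone moved the median of all features by -0.26 (log2) and upper-quartile scaling by 0.16.

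Replicate numbers did not pair the libraries: deviations of same-numbered libraries correlated at -0.21 to 0.20, and 1 of 10 libraries correlated best with its own number. With the replicate block the changes were 1.43 for miR-22-3p and 1.24 for miR-22-5p, and -0.33 for the arm ratio. Depth limits miR-22-5p, which had 4 to 31 reads in a library.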
